A study of Homo sapiens with 2 samples.

Results

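The tumour necrosis factor (TNF) superfamily genes examined here are the ligands and receptors of that superfamily together with the TRAF adaptor genes, in side population (SP) and non-side population (NSP) cells sorted from J82 cultures. They were taken by symbol: every gene whose symbol begins TNFSF or TNFRSF followed by a digit, plus TNF, LTA, LTB, LTBR, FAS, FASLG, CD40, CD70, CD27, NGFR, EDAR, EDA2R and the TRAF genes. A gene entered when a probe set carried its symbol alone, which gave 43 of the 14232 genes measured in this way. The rule itself uses symbols and no measured value, and the gene family was picked with earlier results of these data known. J82 is an established human bladder cancer line, grown here in DMEM with serum and without treatment. SP cells appear dim in flow cytometry because they expel the DNA-binding dye Hoechst, and NSP cells of the same line retain it. Total RNA was profiled on human exon arrays, and each population is represented by a single hybridisation. Since neither population was replicated, the differences below carry no replicate error and no test, and they hold for these 2 arrays. In such bulk RNA, more cells expressing a gene and more RNA per cell cannot be told apart.

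TNF superfamily ligands are mostly trimeric membrane proteins, some of them shed, that bind cysteine-rich receptors on other cells or on the same cell. Receptors with a cytoplasmic death domain can recruit FADD and caspase-8 and start apoptosis, or recruit TRADD and activate NF-kB. Receptors without a death domain bind TRAF proteins directly and signal through NF-kB and MAP kinases, and decoy receptors bind ligand without transmitting a death signal. In the bladder, TRAIL, the product of TNFSF10, has been studied as a death ligand for tumour cells.

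By symbol the selection takes 52 protein-coding genes in the RefSeq annotation, of which 43 were measured. A further 8 (TNFRSF25, TNFSF4, CD27, TRAF7, TNFRSF6B, TNFSF12, TNFSF13 and the read-through gene TNFSF12-TNFSF13) had only probe sets shared with another symbol, and TRAF2 had none listed, so these 9 were not analysed here. Of the 43 genes, 42 rested on 1 probe set and TNFRSF10C on 2. Values are log2 signals, and the floor used below is the median of all probe set values on both arrays, 7.44. Of the members, 22 reached the floor, each of them on both arrays, and 21 lay under it on both. Signals of different genes come from different probes, so levels were compared only between the arrays and never between genes.

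The labels of the samples were set beside marker genes. The efflux transporter genes ABCB1 (9.87 in SP, 9.17 in NSP), ABCC1 (10.50 and 10.12) and ABCG2 (6.14 and 5.69, under the floor) were each higher in SP. Of 11 luminal urothelial markers, 5 reached the floor (PPARG, FOXA1, KRT8, KRT18 and KRT19), whereas GATA3, KRT20 and the 4 uroplakin genes lay under it on both arrays. Of these 11 markers 9 were higher in SP, 4 of them at or above the floor. Of all genes 40.1% were higher in SP at or above the floor and 59.6% under it. The markers' summed linear signal was 12469 in SP and 9584 in NSP, most of it from KRT8 (13.18 and 12.77). PPARG had 9.20 in SP and 8.50 in NSP. The 2 measured basal markers differed little, KRT14 with 7.77 in SP and 7.78 in NSP and CD44 with 8.15 and 8.09. All 7 measured mesenchymal markers reached the floor, 5 of them higher in SP, with ZEB2 at 9.56 in SP and 8.54 in NSP and VIM at 10.12 and 10.16. The part of these marker differences in the values below was not tested. Of 11 measured immune cell markers 3 reached the floor. They were CD68 (9.35 in SP, 9.66 in NSP), CD14 (7.73 and 7.64) and NKG7 (7.56 and 7.31). Of the 11 markers 6 were higher in SP and 5 lower. The summed linear signal of all 11 was 1531 in SP and 1608 in NSP. The pan-leukocyte gene PTPRC had 3.74 in SP and 3.80 in NSP. None of the 5 endothelial markers reached the floor.

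No TNF superfamily gene at or above the floor differed by 1.5-fold between SP and NSP in either direction. Of the 7549 genes on the array that reached the floor, 3.1% passed 1.5-fold upward in SP and 1.43% downward, so with 22 genes a count of 0 each way is close to that background. No member passed 2-fold either, which 0.609% of the 7549 genes did upward and 0.119% downward. All 22 differences lay inside the range that held the central 95% of those 7549 genes, -0.51 to 0.63 on the log2 scale. Small differences leaned upward: 16 of the 22 members (72.7%) were above their NSP value in SP and 6 below it, against 40.1% higher and 59.6% lower among the 7549 genes. The median difference, SP minus NSP, was 0.09 for the 22 members and -0.05 for the 7549 genes. Over all 43 members 28 were higher and 15 lower, with a median of 0.06 and an SD across members of 0.256. Over all 14232 genes 7007 were higher and 7046 lower, with a median of 0.00 and an SD of 0.257. Among the 6683 genes under the floor 59.6% were higher in SP, so counts that include dim members have a different background.

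**Figure D1:**
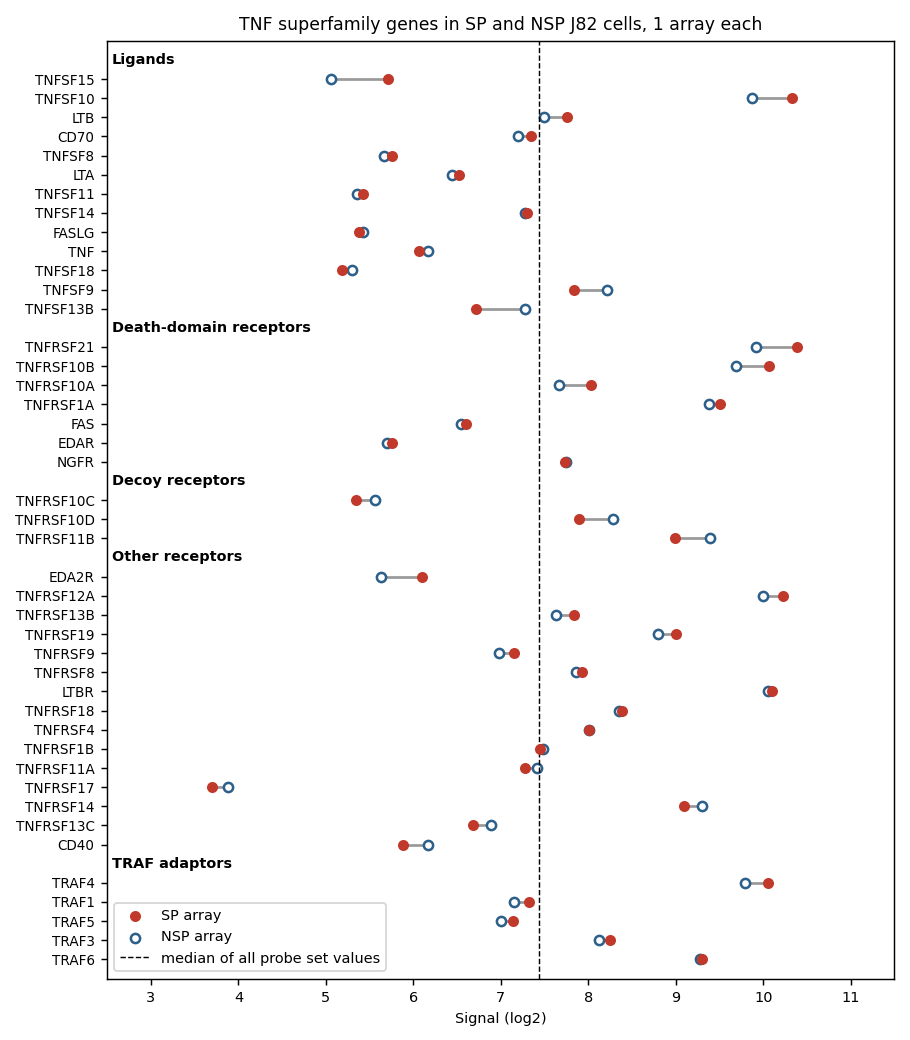
Signal (log2, horizontal axis) of the 43 TNF superfamily genes, grouped by role and ordered by difference within a role, on the SP array (filled red) and the NSP array (open blue), with the floor of 7.44 dashed. Most pairs of points lie close together, and all 3 decoy receptors have the SP point left of the NSP point.

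The ligand TNFSF10 (TRAIL) and its receptors held 5 of the 7 members above the floor that differed by 1.25-fold or more, a smaller threshold chosen after the values were seen. At that threshold 4 of 22 members were higher in SP and 3 lower, against 8.57% and 10.7% of the 7549 genes. TNFSF10 had a signal of 10.33 in SP and 9.87 in NSP, which is 1.38-fold higher (log2 difference 0.46). TNFRSF10A, which encodes the death receptor DR4, had 8.03 in SP and 7.66 in NSP, 1.29-fold higher (0.36). TNFRSF10B, which encodes the second TRAIL death receptor, DR5, had 10.07 in SP and 9.69 in NSP, 1.31-fold higher (0.38). The ligand and both of its death receptors were thus higher on the SP array by similar amounts.

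The decoy receptors for TRAIL were lower on the SP array. TNFRSF10D, whose product (DcR2) has a truncated death domain, had 7.90 in SP and 8.28 in NSP, 1.30-fold lower (-0.38). TNFRSF11B encodes osteoprotegerin, a secreted decoy for TRAIL and for RANKL, and had 9.00 in SP and 9.39 in NSP, 1.31-fold lower (-0.39). TNFRSF10C, whose product (DcR1) is anchored in the membrane by a lipid, had 5.34 in SP and 5.56 in NSP, under the floor on both. Its 2 probe sets differed in size, with differences of -0.43 and -0.01 (SP minus NSP). The mean difference was 0.37 for the 2 death receptors and -0.39 for the 2 decoys above the floor, a gap of 0.76, so the ratio of death receptor to decoy signal was 1.70-fold higher in SP than in NSP. That ratio was formed after the values were seen. None of these differences alone left the central 95% of genes at or above the floor, and TNFSF10 lay at percentile 95.02 of them and TNFRSF11B at percentile 5.89. TNFRSF10A to TNFRSF10D are close paralogs, and how far their probe sets cross-hybridise was not tested.

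**Figure D2:**
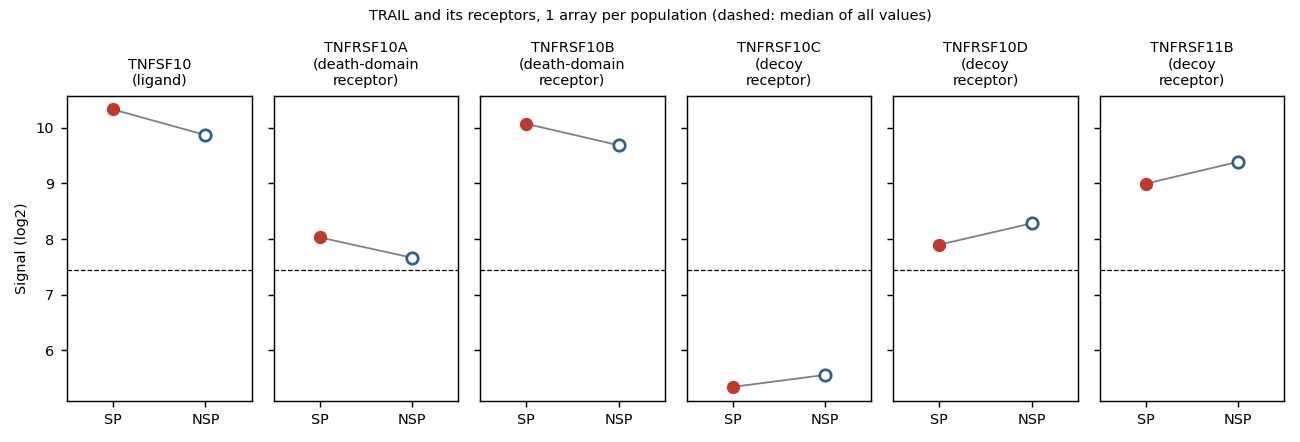
Signal (log2, vertical axis) of TNFSF10 and its 5 receptors on the SP array (left, filled) and the NSP array (right, open), with the floor of 7.44 dashed. The SP point is the higher one for the ligand and both death-domain receptors and the lower one for the 3 decoys. Heights in different panels come from different probes and are not comparable.

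Promoter windows (250 bases before to 50 after the annotated gene start, RefSeq, GRCh38.p14) are given for 4 members with a motif search on both strands. They are TNFSF10 and TNFRSF21, with the largest positive differences above the floor, TNFSF9, a ligand that was lower in SP, and LTB, the ligand above the floor whose window held the kappa-B consensus. Each is printed 5′ to 3′ on the gene's strand, with matches in capitals. The motifs searched were the kappa-B consensus by its usual degenerate form, the AP-1 site TGANTCA, the GC box GGGCGG and the interferon-stimulated response element (ISRE) core, which is GAAA, any 2 bases and GAAA, and overlapping matches are merged.
TNFSF10 (chr3:172523381-172523680, minus strand): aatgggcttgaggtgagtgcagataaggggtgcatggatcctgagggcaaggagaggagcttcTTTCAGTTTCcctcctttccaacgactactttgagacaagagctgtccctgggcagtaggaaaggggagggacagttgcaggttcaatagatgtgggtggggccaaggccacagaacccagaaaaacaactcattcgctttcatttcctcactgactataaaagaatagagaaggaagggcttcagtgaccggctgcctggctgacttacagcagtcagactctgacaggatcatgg
TNFRSF21 (chr6:47309856-47310155, minus strand): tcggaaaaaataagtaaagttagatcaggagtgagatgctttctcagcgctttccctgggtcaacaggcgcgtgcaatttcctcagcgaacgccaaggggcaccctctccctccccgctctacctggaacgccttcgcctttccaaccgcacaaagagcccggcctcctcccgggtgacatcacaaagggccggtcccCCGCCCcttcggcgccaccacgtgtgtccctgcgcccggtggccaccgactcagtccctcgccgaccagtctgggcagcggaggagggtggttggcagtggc
TNFSF9 (chr19:6530776-6531075, plus strand): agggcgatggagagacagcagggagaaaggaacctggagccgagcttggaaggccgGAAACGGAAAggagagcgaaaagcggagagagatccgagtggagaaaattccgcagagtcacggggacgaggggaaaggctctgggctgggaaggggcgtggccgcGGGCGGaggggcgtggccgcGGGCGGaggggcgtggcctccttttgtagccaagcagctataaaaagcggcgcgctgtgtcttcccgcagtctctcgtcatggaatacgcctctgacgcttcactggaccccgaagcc
LTB (chr6:31582376-31582675, minus strand): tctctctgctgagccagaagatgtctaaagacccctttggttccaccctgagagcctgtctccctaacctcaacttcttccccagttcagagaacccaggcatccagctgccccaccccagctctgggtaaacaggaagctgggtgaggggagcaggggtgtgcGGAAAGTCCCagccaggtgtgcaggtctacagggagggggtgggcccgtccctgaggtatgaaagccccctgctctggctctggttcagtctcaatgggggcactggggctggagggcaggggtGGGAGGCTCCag

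The TNFSF10 window held 1 match to the ISRE core, starting 187 bases before the gene start, and none to the other motifs. TNFRSF21 held 1 GC box. TNFSF9 held 2 GC boxes and 1 ISRE core match, and LTB held 2 matches to the kappa-B consensus. The search covered windows of 29 of the 43 members, 42 windows in all because some genes have several starts. Any windows of members on chromosome 8 (TNFRSF10A to TNFRSF10D and TNFRSF11B) were left out. The motifs were therefore not searched for the TRAIL receptor genes. All promoter windows used for comparison were not filtered by chromosome. The kappa-B consensus occurred in 26.2% of the members' windows and in 11.3% of all 34943 promoter windows, the AP-1 site in 19.0% and 7.72%, the GC box in 59.5% and 44.9%, and the ISRE core in 19.0% and 3.57%. Windows of 1 gene overlap, so these shares do not count independent sequences. By gene, the kappa-B consensus occurred for 9 of 29 members (FAS, LTA, LTB, TNFRSF14, TNFRSF19, TNFRSF9, TNFSF11, TNFSF14 and TRAF3), whose differences ran from -0.21 for TNFRSF14 to 0.26 for LTB. The ISRE core occurred for 6 (FASLG, TNFRSF1B, TNFSF10, TNFSF13B, TNFSF14 and TNFSF9), among them TNFSF10, at 0.46, and TNFSF13B, at -0.57. Members with the kappa-B consensus, and members with the ISRE core, thus lay on either side of 0.

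Of the ligands other than TNFSF10, TNFSF9 and LTB reached the floor and the remaining 10 lay under it. The median difference of the 13 measured ligand genes was 0.07, 8 being higher and 5 lower in SP. At or above the floor 2 were higher and 1 lower, against 40.1% of all genes higher there and 59.6% under it. LTB encodes lymphotoxin beta, which anchors lymphotoxin alpha in the membrane, and had 7.76 in SP and 7.49 in NSP (0.26). TNFSF9 encodes 4-1BB ligand, a costimulator of T cells, and had 7.84 in SP and 8.22 in NSP, 1.30-fold lower (-0.38). TNF itself lay under the floor, with 6.06 in SP and 6.17 in NSP (-0.11). LTA, the soluble lymphotoxin, had 6.52 in SP and 6.44 in NSP (0.08). FASLG, the ligand of the death receptor FAS, had 5.38 in SP and 5.42 in NSP (-0.04). These 3 classical ligand genes thus stayed under the floor on both arrays, with differences of at most 0.11 in size.

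The largest differences of all 43 members belonged to ligand genes under the floor. TNFSF15 encodes TL1A, the ligand of the death receptor DR3, and had 5.71 in SP and 5.05 in NSP, 1.58-fold higher (0.66). TNFSF13B encodes BAFF, a survival factor for B cells, and had 6.71 in SP and 7.28 in NSP, 1.48-fold lower (-0.57). The central 95% of the 6683 genes under the floor ran from -0.43 to 0.46, and TNFSF15, TNFSF13B and the receptor gene EDA2R were the 3 of 21 dim members outside it. Without a floor, TNFSF15 was the 1 member of 43 at or past 1.5-fold higher, against 2.24% of all 14232 genes, and none was as much lower, against 1.23%. Whether these signals lie above background cannot be read from the table. CD70, the ligand of CD27, had 7.35 in SP and 7.19 in NSP (0.16), and TNFSF18, the GITR ligand, had 5.18 in SP and 5.29 in NSP (-0.11). The remaining dim ligands, TNFSF8 (CD30 ligand), TNFSF11 (RANKL) and TNFSF14 (LIGHT), differed by between 0.01 and 0.09.

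Among death-domain receptors 6 of 7 were higher in SP, and the 5 at or above the floor had a median difference of 0.36. TNFRSF21, which encodes DR6, a receptor studied in neurons and lymphocytes, had 10.39 in SP and 9.92 in NSP. Its 1.38-fold higher value (0.47) was the largest positive difference among members at or above the floor, at percentile 95.2 of the 7549 genes. TNFRSF1A encodes TNFR1, the main receptor of soluble TNF, and had 9.50 in SP and 9.38 in NSP (0.12). NGFR, the low-affinity neurotrophin receptor, had 7.73 in SP and 7.75 in NSP (-0.02). The differences of TNFRSF1A and NGFR were thus far smaller than those of TNFRSF21 and the TRAIL death receptors. FAS had 6.60 in SP and 6.54 in NSP (0.06), and EDAR, the ectodysplasin receptor, had 5.76 in SP and 5.70 in NSP (0.06), both under the floor.

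Receptors without a death domain, 15 genes, had a median difference of 0.04 (9 higher in SP, 6 lower). At or above the floor 7 were higher and 2 lower, against 40.1% of all genes higher there and 59.6% under it. Of the 9 at or above the floor, TNFRSF12A had the largest positive difference. It encodes Fn14, the receptor of TWEAK, and had 10.22 in SP and 10.00 in NSP (0.23). TNFRSF13B (TACI, a BAFF receptor) had 7.84 in SP and 7.64 in NSP (0.20), and TNFRSF19 (TROY) had 9.00 in SP and 8.80 in NSP (0.20). TNFRSF14 encodes HVEM, the receptor of LIGHT, and had 9.09 in SP and 9.30 in NSP, the only value among these 9 that was lower in SP by more than 0.1 (-0.21). The lymphotoxin beta receptor gene LTBR had 10.10 in SP and 10.05 in NSP (0.05). TNFRSF1B, which encodes TNFR2, had 7.45 in SP and 7.48 in NSP (-0.03), just above the floor. The T cell costimulatory receptor genes TNFRSF18 (GITR), TNFRSF4 (OX40) and TNFRSF8 (CD30) differed by 0.04, 0.01 and 0.06. These 5 receptors therefore showed near-equal values on both arrays.

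The 6 dim receptors of this group spread more widely. EDA2R, the receptor of the ectodysplasin isoform A2 and a p53 target, had 6.10 in SP and 5.63 in NSP (0.47). CD40, the receptor of the T cell ligand CD40L, had 5.88 in SP and 6.17 in NSP (-0.29). TNFRSF9 (4-1BB) had 7.15 in SP and 6.98 in NSP (0.17), and TNFRSF11A (RANK) had 7.28 in SP and 7.42 in NSP (-0.14). The other BAFF receptor genes, both under the floor, were at -0.21 for TNFRSF13C (BAFF-R, 6.68 in SP and 6.89 in NSP) and -0.19 for TNFRSF17 (BCMA, 3.70 in SP and 3.89 in NSP).

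All 5 measured TRAF genes, which encode the adaptors that bind receptor tails, were higher in SP by small amounts, with a median difference of 0.13. Of these, 3 reached the floor, where 40.1% of all genes were higher, and 2 lay under it, where 59.6% were. TRAF4 had 10.05 in SP and 9.79 in NSP, 1.20-fold higher (0.26). TRAF3, an inhibitor of the alternative NF-kB pathway, had 8.25 in SP and 8.12 in NSP (0.12). TRAF6, an adaptor also of interleukin-1 and Toll-like receptors, had 9.30 in SP and 9.27 in NSP (0.03). These are the 3 TRAF genes at or above the floor. TRAF1, itself induced by NF-kB, had 7.33 in SP and 7.15 in NSP (0.17), and TRAF5 had 7.14 in SP and 7.01 in NSP (0.13).

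**Figure D3:**
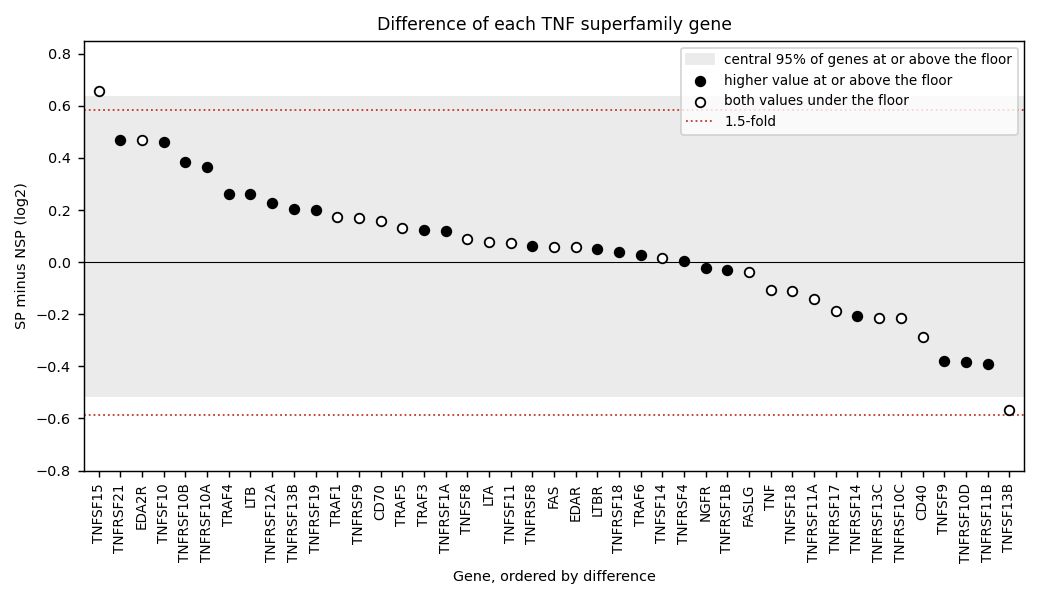
Difference of each of the 43 genes (SP minus NSP, log2, vertical axis), ordered from highest to lowest, with genes at or above the floor filled and genes under it open. The grey band holds the central 95% of the 7549 genes that reached the floor (-0.51 to 0.63) and the dotted lines mark 1.5-fold. All filled points lie inside the band, and only TNFSF15 passes a dotted line.

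Ligands were set beside their receptors in 21 pairs in which both were measured. Both partners reached the floor in 5 pairs, which involve TNFSF10 with 4 of its receptors and LTB with LTBR. For LTB the ligand differed by 0.26 and its receptor by 0.05. TNFSF9 was lower in SP (-0.38) while its receptor gene TNFRSF9, under the floor, was higher (0.17). TNFSF13B was lower (-0.57) while its receptor genes were at 0.20 for TNFRSF13B, -0.21 for TNFRSF13C and -0.19 for TNFRSF17. TNF and LTA, both dim, faced TNFRSF1A at 0.12 and TNFRSF1B at -0.03. Ligand and receptor differences therefore had no common direction across these pairs.

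Other genes of the pathway, 74 listed and 60 measured, included 3 that passed 1.5-fold upward in SP among 46 at or above the floor (6.52%, against 3.1% of genes overall), and none that passed it downward (against 1.43%). Their median difference was 0.03, below the 0.09 of the superfamily genes at or above the floor. TNFAIP3 encodes A20, which edits ubiquitin on TNF receptor complexes, and had 11.12 in SP and 9.76 in NSP, 2.56-fold higher. TNFAIP8, a TNF-induced inhibitor of caspase-8-mediated death, had 7.54 in SP and 6.65 in NSP, 1.85-fold higher, and only its SP value reached the floor. NFKBIA, the NF-kB-induced inhibitor IkB alpha, had 11.41 in SP and 10.75 in NSP, 1.58-fold higher. Other members of the same lists lay on both sides of 0. REL at 0.42, BCL3 at 0.40, NFKB1 at 0.39 and LITAF at 0.33 were higher in SP. NFKB2 at 0.06, TNFAIP6 at -0.03 (under the floor), RELB at -0.20, NFKBIE at -0.23 and NFKBIB at -0.29 were flat or lower. These genes were named after their values were seen. The list with NFKBIA had 6 genes higher and 3 lower, that with TNFAIP8 5 and 3, and that with TNFAIP3 4 and 6. At or above the floor these counts were 6 and 3, 3 and 1, and 4 and 4. Of all genes 40.1% were higher at or above the floor and 59.6% under it.

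The lists of other pathway genes had medians between -0.03 and 0.19. Receptor-proximal adaptors, 9 of 12 measured, had a median of -0.01, with FADD (7.93 in SP, 7.73 in NSP), the death adaptor, at 0.19 and MLKL (7.30 and 7.57), the executor of necroptosis, at -0.27. The list of kinases downstream of the TRAF proteins and their binding subunits had a median of 0.17 with 8 of 10 higher. Its genes TAB1 (0.05), TAB2 (0.17), TAB3 (0.17) and IKBKG (0.31) encode such subunits and no kinases. The kinase genes CHUK (-0.15) and IKBKE were the lower ones. Of the list's genes at or above the floor, TAB2 and TAB3 included, 5 of 7 were higher, against 40.1% of all genes there. TBK1 (8.94 in SP, 8.60 in NSP) led at 0.34, while its relative IKBKE (7.84 and 8.14) was at -0.30. Ubiquitin regulators, TNFAIP3 included, had a median of -0.03. Among TRAF-related proteins, TRAFD1, a negative regulator of innate immune signalling, was at -0.43 (8.35 in SP, 8.77 in NSP) and the ubiquitin ligase gene TRAIP at -0.41 (8.20 and 8.62), and that list had a median of 0.00. The list plotted as TNF-induced proteins holds further TNFAIP genes, the TNFAIP8-like genes and LITAF. It had a median of 0.14, with 4 of its 8 genes under the floor. The list of further ligands, receptors and the proteases that process them had a median of -0.03, with the intramembrane protease genes SPPL2B at -0.29 (9.22 in SP, 9.51 in NSP) and SPPL2A at -0.22 (8.80 and 9.02). NF-kB and IkB genes, 9 of 9 at or above the floor, had a median of 0.19, with 6 higher and 3 lower, against the same 40.1% higher.

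**Figure D4:**
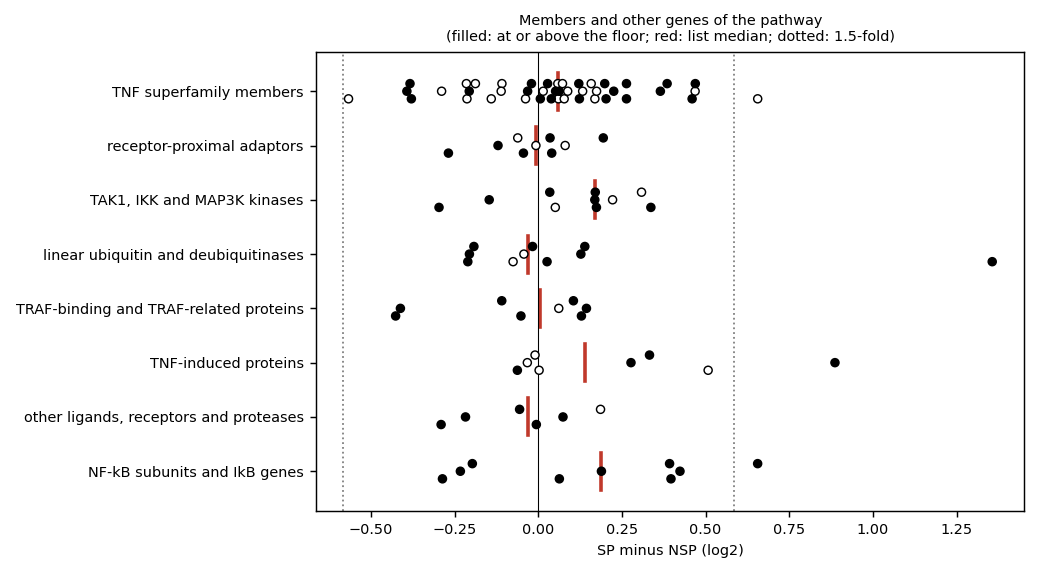
Differences (SP minus NSP, log2, horizontal axis) of the 43 superfamily genes and of 60 other pathway genes by list, with genes at or above the floor filled, list medians in red and 1.5-fold dotted. TNFAIP3 at 1.36, TNFAIP8 at 0.89 and NFKBIA at 0.66 are the filled points past the dotted line.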

How the data were processed

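The authors deposited log2 values per probe set, made with RMA and Partek per the submitters' processing notes. Their versions, the probe set definition and the genome build were not given in the sources used here. That the scale is log2 follows from RMA and the range of the values. No probe intensities were used, so it was not computed which signals exceed background, and RMA compresses differences of dim probe sets.

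Of 22011 probe sets, 14432 had 1 symbol, 2408 several and 5171 none. Symbols were updated through Entrez identifiers in RefSeq (GRCh38.p14), which matched 14404, and probe sets of a gene were averaged. The quantity was SP minus NSP (log2). Calls were 1.5-fold with the higher value at or above the median of all values (7.44), and no test was run with 1 array per population. The arrays' number limits the precision. All measured members were named, and of each pathway list the genes past 1.5-fold or else the 2 with the largest differences above the floor. Further genes named beside TNFAIP3, TNFAIP8 and NFKBIA fall outside that rule and were picked after their values were seen. Members and lists were chosen with earlier results of these data known. The counting was tested on simulated data. Python 3.11.15, numpy 2.4.6, pandas 2.3.3, statsmodels 0.14.6 and matplotlib 3.10.9 were used.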

Additional observations from a re-analysis of the deposited data

How the results depend on the processing

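The counts of members past 1.5-fold were 0 higher and 0 lower in SP with floors at the 25th and 75th percentiles, both arrays at or above the floor, centring, quantile normalisation, removal of the lowess trend (span 0.3), the brightest probe set, symbols without update and a 2-fold threshold. Some of these settings could not change a count of 0. The 75th percentile floor, the floor on both arrays and the 2-fold threshold only narrow the selection. The brightest probe set alters only TNFRSF10C, which lies under the floor with either probe set. Without a floor 1 member, TNFSF15, was higher. At 1.25-fold, an alternative chosen after seeing the data, 4 were higher and 3 lower. The median difference of 0.09 ran from 0.06 without a floor to 0.16 with the trend removed. The median of all genes moved too, from -0.05 in the main setting to 0.00 without a floor and 0.004 with the trend removed. Over the 11 members at the 75th percentile floor the members' median was 0.20, a move of more than 0.1. There 9 members were higher and 2 lower, and the median of all genes was -0.08. The reason for this move was not tested. Quantile normalisation turned the sign of NGFR (-0.02) and trend removal that of TNFSF14 (0.01). The brighter probe set of TNFRSF10C gave -0.01 in place of -0.22. No paired analysis was possible because each population has 1 array.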

Other observations

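Several superfamily genes neighbour each other in the RefSeq order of protein-coding genes (GRCh38.p14), and 11 neighbouring pairs had both genes measured. The direction was the same in 5 of these pairs and opposite in 6. In the run TNFRSF10B, TNFRSF10C, TNFRSF10D and TNFRSF10A, the outer death receptor genes were higher in SP (0.38 and 0.36) and the inner decoy genes lower (-0.22 and -0.38). In the run LTA, TNF and LTB the differences were 0.08, -0.11 and 0.26, and in the run TNFSF9, CD70 and TNFSF14 they were -0.38, 0.16 and 0.01.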
